A study of Mus musculus with 2 samples.

Results

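Costimulatory and inhibitory receptors were compared between 2 fractions of memory T helper 2 (Th2) cells, sorted as producers (IL-5+) and non-producers (IL-5-) of interleukin-5. The list held 10 T cell receptors of checkpoint and costimulation outside the TNF receptor family, namely Lag3, Pdcd1, Ctla4, Havcr2, Tigit, Btla, Cd160, Cd200r1, Icos and Cd28. All probe sets, the short oligonucleotide groups that report a transcript, with 1 of these symbols alone in the platform annotation were taken. This gave 16 probe sets of 9 genes, among 45037 probe sets and 18193 named genes on the array. Tigit had no such probe set and was not analysed here.

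Both groups came from BALB/c CD4 T cells with DO11.10, a transgenic T cell receptor for a peptide of ovalbumin (OVA). Splenic CD4 cells of over 98% purity were cultured with that peptide, 25 U/ml IL-2 and 100 U/ml IL-4 for 6 days and given to BALB/c nu/nu hosts, which lack a thymus but keep B cells, NK cells and myeloid cells. After 30 days memory cells were taken from the spleen and sorted as IL-5+ or IL-5-. The labels do not give the age of the mice, the number of hosts, pooling, or how cells were stimulated before the sort. RNA of each group went on 1 Affymetrix array, so no spread between samples could be estimated and no p-value is given.

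T cells are activated by the antigen receptor together with costimulatory receptors such as CD28 and ICOS, which recruit phosphoinositide 3-kinase. Inhibitory receptors such as PD-1, CTLA-4, LAG-3 and BTLA restrain that signal, through phosphatases, by competing for ligands or by other routes. Many inhibitory receptors are induced by activation itself, so their transcripts mark recent stimulation as well as restraint.

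Values are deposited signal intensities on a linear scale. A floor of 36.3, which 40% of all signals stayed under, replaced any dimmer signal. Ratios are IL-5+ over IL-5- on the log2 scale, and 2-fold was the threshold for calling a gene higher or lower. The only error in reach was the disagreement between probe sets of 1 gene. The SD of their log2 ratios was 0.55 for mean signals of 36.3 to 112.8. It was 0.37 for signals up to 500, 0.21 for those up to 2000, and 0.13 for brighter ones. It leaves out all variation between cell preparations. The sorting marker Il5 had signals of 37085 and 67.4 on the IL-5+ and IL-5- arrays. Among T cell markers Cd3e had signals of 1952 and 2474 and Cd4 455 and 471, above the floor in both fractions. Whether a lower signal comes from fewer cells with the transcript or less RNA per cell cannot be told apart in sorted bulk RNA.

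Of the 9 receptor genes, each at its brightest probe set by mean log2 signal, 1 (Cd200r1) was called higher in IL-5+ cells and 2 (Lag3 and Cd160) were called lower. The other 6 differed by less. Over all 13133 genes above the floor on at least 1 array, 2.85% were called higher and 4.01% lower, together 6.85%. All 3 called receptors had mean signals between 112.8 and 500, where 3.2% of 2937 genes were higher and 4.83% lower. The median log2 ratio of the 9 receptors was -0.064, against -0.048 over all measured genes. The receptors as a set were thus centred where the array was, with Lag3 far from the other members. Of their 16 probe sets, 14 exceeded the floor on both arrays, 1 did so only in IL-5- cells and 1 on neither array.

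**Figure D1:**
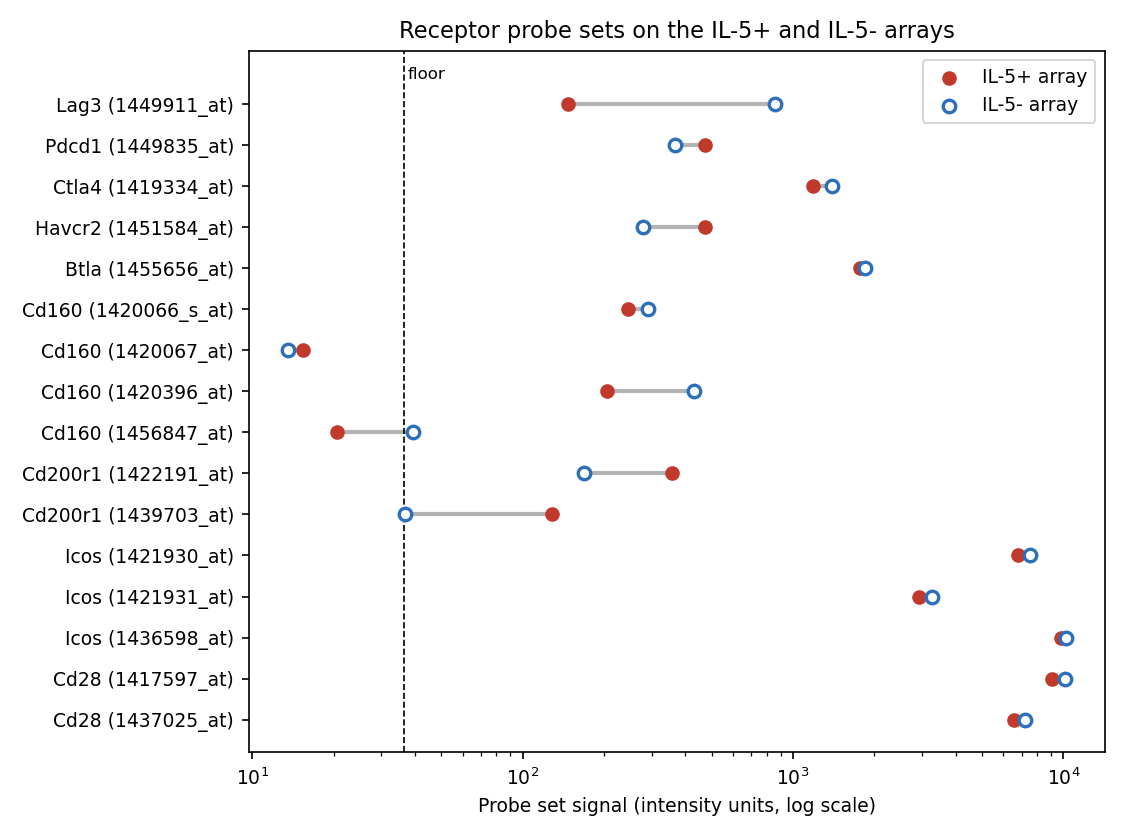
Signal of each of the 16 receptor probe sets (horizontal axis, intensity units, log scale) on the IL-5+ array (filled points) and the IL-5- array (open points), with the floor of 36.3 as a dashed line. The gap is widest for Lag3 (147.7 against 857), while all Icos and Cd28 pairs nearly coincide.

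Lag3, whose protein binds MHC class II and dampens T cell receptor signalling, had the lowest ratio of the receptors. Its single probe set gave 147.7 in IL-5+ and 857 in IL-5- cells, 5.80-fold less in the former (log2 ratio -2.54). Both signals lay well above the floor. The difference was 6.87 times the same-gene SD for that brightness. Among the 10990 genes above the floor on both arrays, Lag3 had the 23rd lowest ratio, and among the 2935 of like brightness the 14th lowest. No second probe set was there to check it, and its ratio ranged from -2.54 to -2.20 over the alternative scalings, floors and probe set choices. Other floors and probe set choices left it at -2.54 by construction.

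Opposite directions were seen among the receptors that, with LAG-3, are often used together as markers of chronically stimulated T cells. Pdcd1, which encodes PD-1, had signals of 473 in IL-5+ and 364.8 in IL-5- cells (log2 ratio 0.37, 1.30-fold). Havcr2, which encodes TIM-3, had signals of 471.7 and 277.8 (0.76, 1.70-fold). Both therefore lay on the other side of 0 from Lag3. The Pdcd1 difference was 1.02 times the same-gene SD and that of Havcr2 2.07 times. Havcr2 was the receptor just under the 2-fold threshold. Its ratio stood at the 95th percentile of genes of like brightness, which was 0.76, whereas the 5th percentile there was -0.98. Each gene had 1 probe set, and each ratio stayed above 0 in all 9 alternatives that give a ratio (0.33 to 0.45 for Pdcd1 and 0.67 to 0.84 for Havcr2). Other floors and probe set choices could not change either ratio.

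Ctla4 encodes the inhibitory receptor that competes with CD28 for CD80 and CD86. Its signals were 1183 in IL-5+ and 1394 in IL-5- cells (log2 ratio -0.24). This was 1.15 times the same-gene SD at that brightness. Btla encodes an inhibitory receptor for the TNF receptor family member HVEM. It had nearly equal signals of 1766 and 1847 (-0.064, or 0.31 of the SD). Division of each array by its median moved Btla to 0.014, so its side of 0 depended on scaling.

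Cd160, a receptor of cytotoxic lymphocytes that also binds HVEM, was the member for which probe sets disagreed most in their call. Probe set 1420396_at, which the annotation assigns to its RefSeq transcript, gave 205 in IL-5+ and 429 in IL-5- cells (2.09-fold lower, log2 ratio -1.07). Probe set 1420066_s_at, designed on an expressed sequence tag, gave 244.7 and 289.6 (-0.24). The remaining ones were dim, at 15.4 and 13.5 for 1420067_at and at 20.5 and 39.2 for 1456847_at. The direction was shared by both well measured probe sets, but 1 alone passed 2-fold, and it did so narrowly. Its ratio was -0.99 with each array divided by its median and -0.91 with an added constant. The median of the 3 probe sets above the floor was -0.24.

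RefSeq (GRCm38.p6) lists a pair of start sites for Cd160, both on the minus strand. The 250 bases before each are shown. The sources used here do not link either start to a probe set. Capitals mark matches on either strand to letters recognised by T-box factors (GGTGTGA), by factors of the GATA family (AGATAA), by STAT factors (TTCNNNGAA) and AP-1 (TGANTCA).
Cd160 upstream start, chr3:96829352-96829601: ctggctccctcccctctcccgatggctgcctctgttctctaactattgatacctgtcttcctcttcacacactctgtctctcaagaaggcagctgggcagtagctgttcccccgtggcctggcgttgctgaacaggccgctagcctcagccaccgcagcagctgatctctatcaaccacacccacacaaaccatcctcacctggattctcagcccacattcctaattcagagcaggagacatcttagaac
Cd160 downstream start, chr3:96814522-96814771: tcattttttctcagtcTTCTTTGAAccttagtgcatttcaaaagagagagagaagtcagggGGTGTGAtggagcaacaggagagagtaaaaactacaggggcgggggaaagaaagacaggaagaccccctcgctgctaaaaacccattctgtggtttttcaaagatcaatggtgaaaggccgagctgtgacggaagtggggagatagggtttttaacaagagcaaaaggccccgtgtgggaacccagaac
The first window held none of these letters. The second held a T-box match and a STAT match, which do not overlap. Over all 32851 windows of this length, 3.33% held the T-box letters, 7.02% the STAT letters, 9.99% the GATA letters and 6.75% the AP-1 letters. Promoters of 6 of the 10 receptors were in the table, in 7 windows. Among these the Havcr2 window held AP-1 letters and the Tigit window GATA letters, and those of Btla, Ctla4 and Pdcd1 held none. These matches describe the sequence only.

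Cd200r1 encodes the inhibitory receptor for CD200, found on myeloid cells and on Th2 cells. It was the member with the highest ratio. Probe set 1422191_at gave 355.4 in IL-5+ and 168.8 in IL-5- cells (2.11-fold, log2 ratio 1.07). Probe set 1439703_at gave 128.9 and 36.8 (3.50-fold, 1.81). Both were at least 2-fold higher, at 2.91 and 3.27 times the same-gene SD of their brightness. The IL-5- signal of the second one sat at the floor, and a floor of 112.8 brought its ratio to 0.19. With an added constant of 50 the first one came to 0.89. Among genes above the floor on both arrays, Cd200r1 had the 218th highest of 10990 ratios.

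The related gene Cd200r4, an activating relative next to Cd200r1, had signals of 299.7 and 157.8 (log2 ratio 0.93). Cd200r3 stayed below the floor in both fractions (13.0 and 1.20). Whether the probe sets of Cd200r1 and Cd200r4 tell these similar genes apart is not given in the sources used here. Cd200, the ligand gene, also had a higher signal in IL-5+ cells, 1325 against 883 (0.59).

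Icos and Cd28, the costimulatory members, were nearly equal on both arrays at every probe set. Icos, which supports Th2 and follicular helper cytokine production, had signals of 9787 and 10206, 6814 and 7528, and 2913 and 3261 on the IL-5+ and IL-5- arrays. The log2 ratios were -0.061, -0.14 and -0.16. Cd28 had signals of 9051 and 10151 and of 6549 and 7236, with ratios of -0.17 and -0.14. All 5 differences were between 0.45 and 1.24 times the same-gene SD. The brightest Icos probe set went to 0.018 when arrays were divided by their medians, and the other 4 stayed below 0 in all scalings. Of the 2411 genes of like brightness, 2.9% were at least 2-fold apart in either direction.

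**Figure D2:**
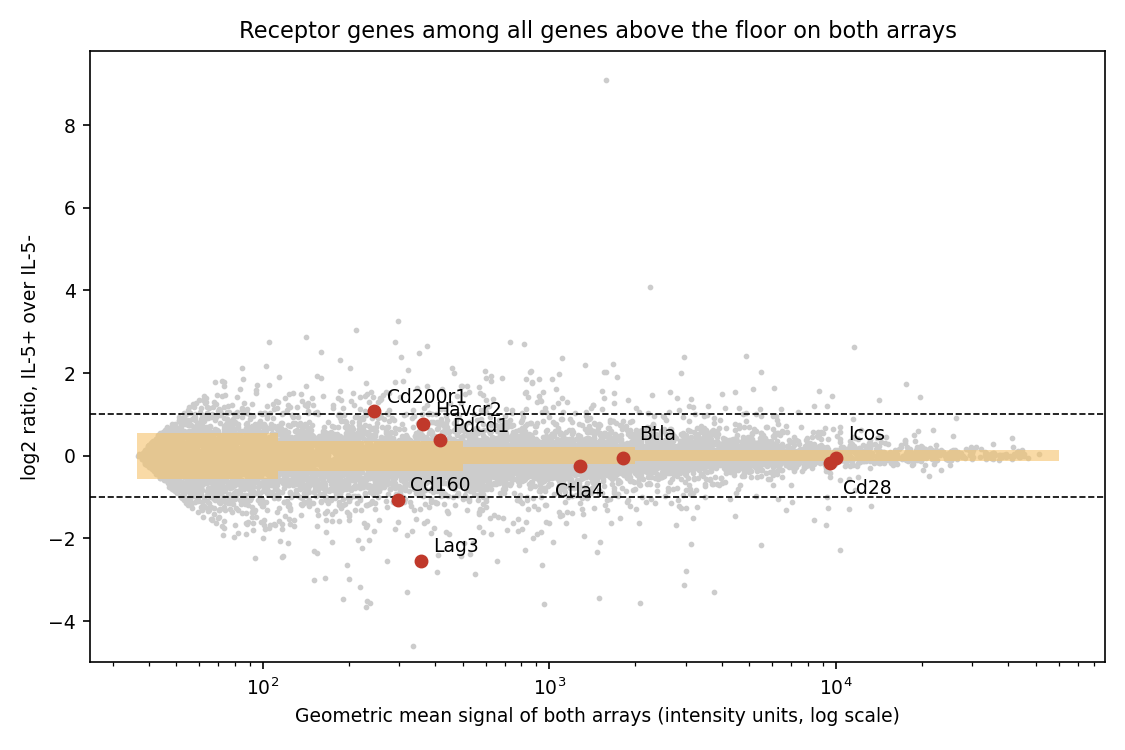
Log2 ratio, IL-5+ over IL-5- (vertical axis), against the geometric mean signal (horizontal axis, intensity units, log scale) for all 10990 genes above the floor on both arrays (grey) and the 9 receptor genes (red). The shaded band is 1 same-gene SD to each side of 0 and dashed lines mark 2-fold; Lag3, at -2.54, lies far below the band, and Icos, Btla and Pdcd1 lie in or at its edge.

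Markers of other cells were read on the same arrays, since several cell types carry these receptors. LAG-3, CTLA-4 and TIGIT are also carried by regulatory T cells. Of 5 regulatory T cell markers, 2 were called lower in IL-5+ cells and 1 higher, against 4.01% and 2.85% of all measured genes. Foxp3 gave 39.6 and 94.6, Ikzf2 216 and 732, and Nrp1 1607 and 471. Il2ra (4328 and 5104) and Tnfrsf18 (13435 and 15243) differed little, and the summed signal of the 5 was 19626 and 21644. The part of such cells in the Lag3 difference was not tested. Cd160 is carried by NK cells and CD8 T cells. Of the 4 NK cell markers with a probe set, Ncr1 and Klra8 stayed below the floor in both fractions. Nkg7 and Gzmb, which activated T cells also express, brought the summed signals to 3552 and 5612, and the part of NK or CD8 T cells in the Cd160 difference was not tested. The CD8 markers Cd8a and Cd8b1 summed to 347 and 245. For Cd200r1, 4 of 6 basophil and mast cell markers (Mcpt8, Fcer1a, Ms4a2 and Cma1) were under the floor on both arrays, and the 6 summed to 167 and 209. The 5 myeloid markers summed to 275 and 330. Single members lay on either side. Cd68 (109.1 and 75.8) and Kit (122.7 and 106.3) were higher in IL-5+ cells. Csf1r (105.6 and 124.5), Adgre1 (35.9 and 61.1), Lyz2 (6.3 and 42) and Cpa3 (21 and 50.5) were lower. The part of such cells in the Cd200r1 difference was not tested. The 4 dendritic cell markers summed to 112.5 and 258.2, with H2-Aa at 51.0 and 155.8.

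Ligands of these receptors were measured as well, because T cells carry several of them. Of 17 listed, Hmgb1 had no named probe set and 4 had their brightest probe set under the floor on both arrays. Of the other 12, 1 was at least 2-fold higher and 2 lower, with a median log2 ratio of -0.087. Over all measured genes, 2.85% were higher and 4.01% lower by that threshold. Lgals3, which encodes galectin-3, a LAG-3 ligand, was higher in IL-5+ cells (417.4 against 161.8, 1.37), the opposite side from Lag3. The PD-1 ligand genes lay on opposite sides of 0. Cd274 (PD-L1), with the highest mean signal of the list, had 1751 and 2516 (-0.52), and Pdcd1lg2 (PD-L2) 2545 and 1677 (0.60). Tnfrsf14, which encodes the HVEM bound by BTLA and CD160, exceeded the floor in IL-5- cells only (9.20 against 97.1), at least 2.67-fold lower. Ceacam1, a TIM-3 ligand gene, was likewise dim (21.7 against 81.2), at least 2.24-fold lower. Both bounds vanish with a floor of 112.8. A second Ceacam1 probe set had 2 and 38.1 (-0.07 against the floor). Another TIM-3 ligand gene, Lgals9, had 673 and 1122 (-0.74). The CD28 and CTLA-4 ligand genes Cd80 and Cd86 and the ICOS ligand gene Icosl stayed at or under 42.7 at their brightest probe sets by mean log2 signal. A second Cd86 probe set had 3 and 79.3 (-1.13 against the floor), and a second Cd80 probe set 42.1 and 16.4 (0.21).

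Other inhibitory and costimulatory receptors of lymphocytes were read for comparison. Of 21 listed, 4 had no named probe set, 5 were under the floor and 12 were measured. Among the 12, the 2-fold threshold called 2 higher and none lower, and the median was 0.048. Across the whole array, 2.85% of measured genes were called higher and 4.01% lower. Cd72, an inhibitory lectin-like receptor best known from B cells, had 423 in IL-5+ and 96.7 in IL-5- cells (2.13). Of the 3 B cell markers with a probe set, Cd79a stayed under the floor in both fractions, Ms4a1 had 60.7 and 62.1, and Cd22 had 38.6 and 21.9. Their summed signal was 114.5 in IL-5+ and 91.5 in IL-5- cells, and the part of B cells in the Cd72 difference was not tested. Vsir, which encodes the checkpoint protein VISTA, had 4593 and 2276 (1.01), and 0.68 at its other probe set. Lair1, which encodes an inhibitory receptor for collagens, had -0.71 at its brightest probe set, while its other probe sets passed 2-fold lower, at -1.03 (148.5 against 304.2) and -1.38 (63.7 against 166.1). Cd2, the adhesion receptor with the highest mean signal of the list, had 8243 and 11005 (-0.42). Cd226 and Cd96, which share ligands with TIGIT, were at 39.1 and 32.6 and at 1198 and 961.

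**Figure D3:**
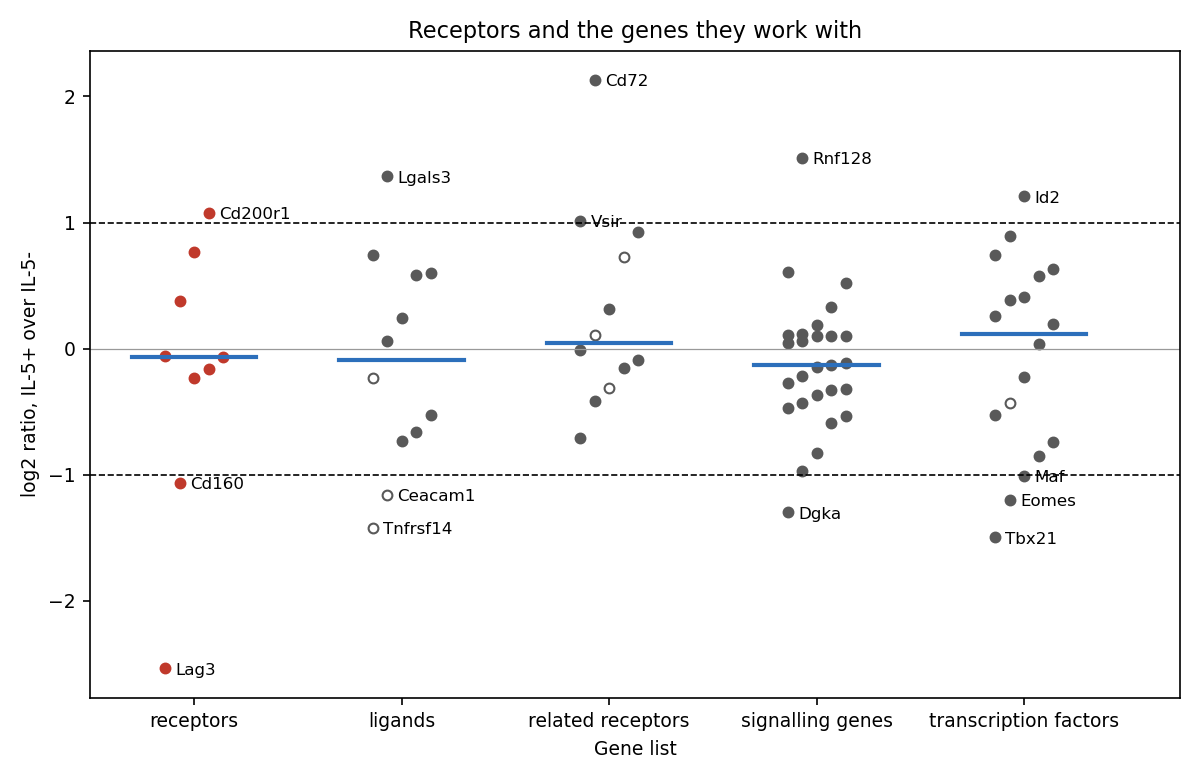
Log2 ratio, IL-5+ over IL-5- (vertical axis), for each measured gene of the receptors and of the ligand, related receptor, signalling and transcription factor lists. Open points are genes above the floor on 1 array only, blue lines are medians and dashed lines mark 2-fold; all 5 medians lie between -0.13 and 0.12 and Lag3 has the lowest value shown.

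Signalling genes used by the receptors differed little as a list. All 27 genes with a probe set were measured, with 1 at least 2-fold higher, 1 lower and a median of -0.13. The shares over all measured genes were 2.85% higher and 4.01% lower. Rnf128, which encodes the ubiquitin ligase GRAIL linked to T cell unresponsiveness, was higher in IL-5+ cells (974 against 341, 1.52), and its second probe set gave 1.73. Dgka, a diacylglycerol kinase gene that limits signalling from CD28 and the antigen receptor, was lower (833 against 2048, -1.30). Its relative Dgkz came just under 2-fold, at 3748 and 7358 (-0.97). Cblb, a ubiquitin ligase gene that sets the need for CD28, had 2443 and 4345 (-0.83), with 3 probe sets from -0.98 to -0.61. The phosphatase genes Ptpn6 and Ptpn11, used by PD-1 and BTLA, had ratios of -0.33 and -0.14. Pik3cd, a kinase subunit gene with the highest mean signal of the list, had 18464 and 17032 (0.12). Its other probe sets were all below 0, at -1.10, -0.95, -0.83 and -0.70.

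Of 18 measured transcription factor genes tied to these receptors, 1 was at least 2-fold higher and 3 lower (median 0.12, and -0.19 when probe sets of a gene were summarised by their median). Over all measured genes, 2.85% were at least 2-fold higher and 4.01% lower. Of the 18 factors, 10 had ratios above 0 and 8 below. The 3 lower genes were Tbx21, Eomes and Maf, at -1.50, -1.20 and -1.01, and Nfatc2 and Prdm1 followed at -0.85 and -0.74. Ratios above 0 included Gata3 and Bcl6, at 0.74 and 0.63, and Nr4a1, Nr4a2 and Nr4a3, at 0.58, 0.89 and 0.26. Probe sets ranged from -1.13 to 0.51 for Nfatc2, from -0.01 to 1.27 for Nr4a2 and from -1.88 to -0.35 for Maf. Tox was at 0.41 and Tox2 at 0.035. Of 3 Tox probe sets, those other than the brightest were below 0 (65.3 against 101.6 and 62.5 against 86.6). Id2, a gene of effector cells, was higher (12739 against 5519, 1.21). Its other probe sets gave 1.31 and 0.45, the latter from signals of 230.2 and 169 and under 2-fold. Irf4, which had the highest mean signal of the list, had 9980 and 14340 (-0.52).

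Chromosomal neighbours were read from the order of protein-coding genes in RefSeq, 3 on each side of a receptor. Of 48 such genes that are not receptors themselves, 29 were measured, 2 of them at least 2-fold higher (Raph1 and Ccdc80) and none lower. The shares over all measured genes were 2.85% higher and 4.01% lower. Lag3 lies between Cd4 and Ptms on chromosome 6. Cd4 had a ratio of -0.051 and Ptms 373 against 608 (-0.71), so neither neighbour approached the Lag3 value. Cd28, Ctla4 and Icos follow each other on chromosome 1 and had ratios of -0.17, -0.24 and -0.061, whereas Raph1 beside Cd28 had 1433 and 648 (1.15). Btla and Cd200 are neighbours on chromosome 16, at -0.064 and 0.59.

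**Figure D4:**
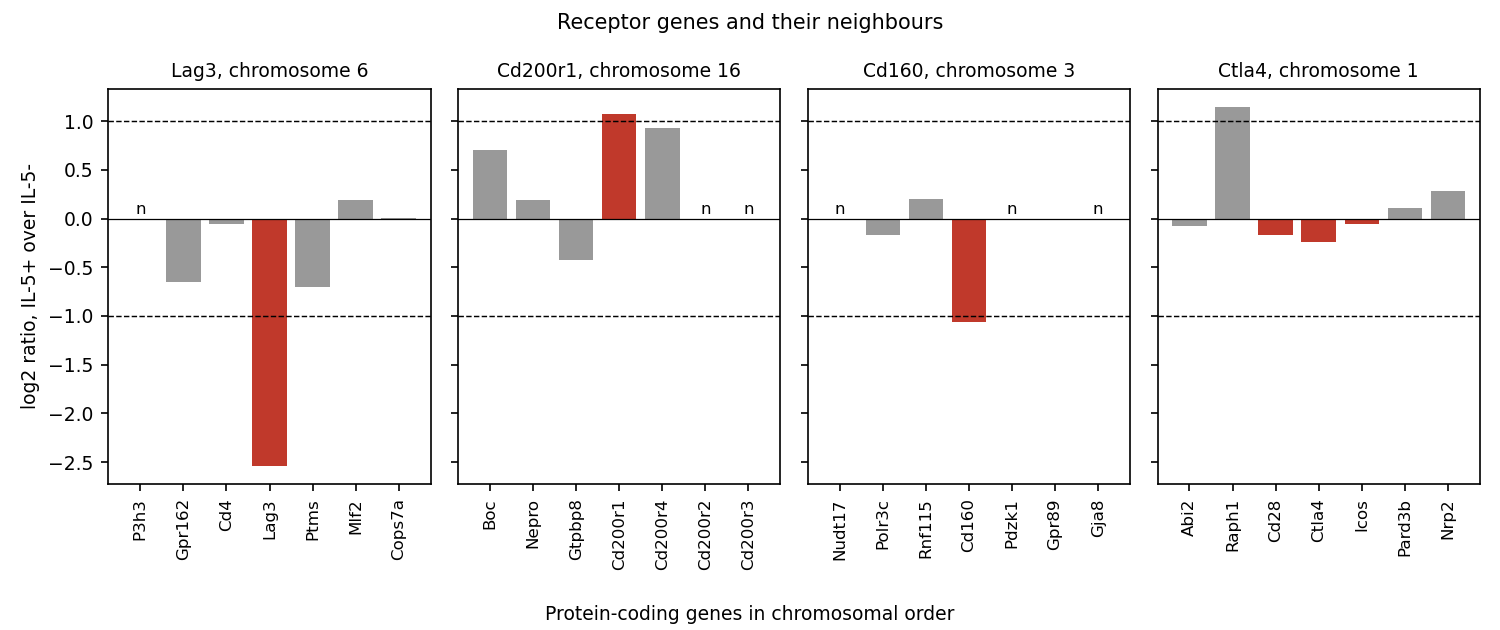
Log2 ratio, IL-5+ over IL-5- (vertical axis), for Lag3, Cd200r1, Cd160 and Ctla4 and the 3 protein-coding genes on each side, in chromosomal order (horizontal axis). Receptors are red, other genes grey, n marks a gene under the floor on both arrays or without a named probe set, and dashed lines mark 2-fold; Lag3 (-2.54) stands apart from Cd4 (-0.051) and Ptms (-0.71).

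Other ways to scale the arrays, treat dim signals and choose probe sets were applied to each receptor ratio. Lag3 was at least 2-fold lower in all 9 of them, although other floors and probe set choices could not change its ratio. Cd200r1 ranged from 0.89 to 1.44, and fell short of 2-fold with the added constant alone. Cd160 ranged from -1.07 to -0.24 and fell short in 3 of them, and Cd28 and Ctla4 kept to -0.20 to -0.087 and -0.24 to -0.16.

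**Figure D5:**
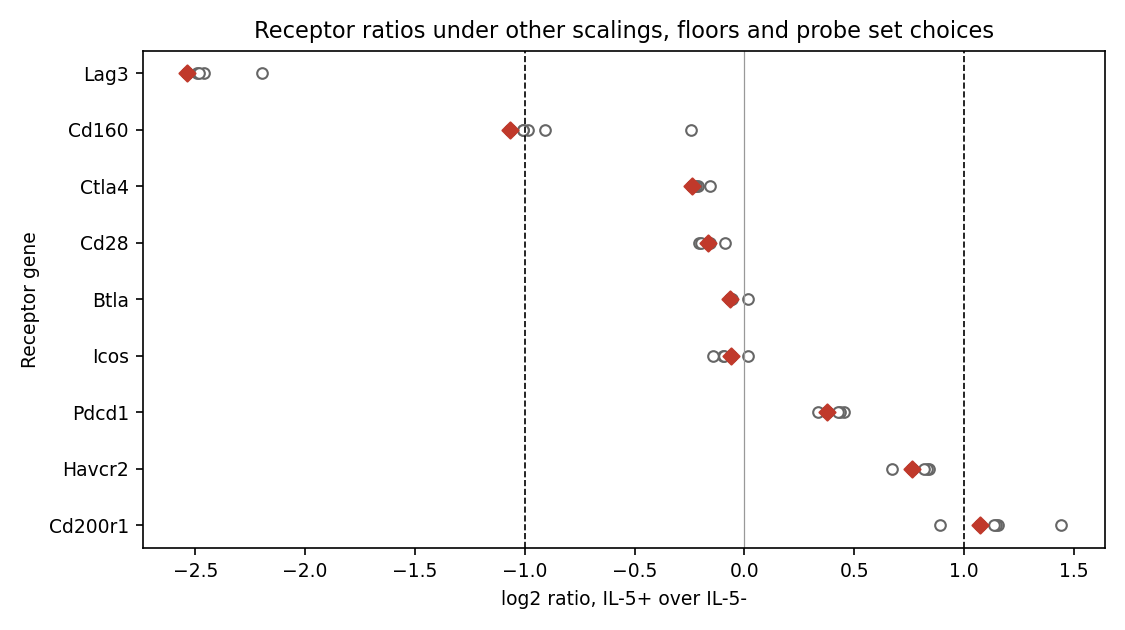
Log2 ratio of each receptor gene (horizontal axis) as reported (red diamond) and under 9 alternatives of scaling, floor and probe set choice (open circles), with dashed lines at 2-fold. Lag3 stays below -2 throughout, while Cd160 and Cd200r1 each cross the 2-fold line under some alternatives. Alternatives that could not change a ratio lie at its diamond.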

How the data were processed

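RNA of memory Th2 cells, IL-5+ or IL-5-, was measured on 1 Affymetrix array each. For each probe set the authors deposited a linear signal intensity, which GCOS produced per the submitters' processing notes. The sources used here give neither its algorithm nor a scaling target. The medians of the arrays were 57.2 and 60.4 and the means without the outer 2% on each side 495 and 496, so ratios are relative to the rest of the array. Of 45037 probe sets, 34945 had exactly 1 gene symbol, 932 several and 9160 none. A gene was represented by the probe set brightest in mean log2 signal. A gene above the floor on 1 array has a bound only.

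Members and lists were chosen with earlier results of these data known. All members were named, and of each list those at least 2-fold apart and the brightest; others were added after their values were seen. No test between the groups was possible. The 2-fold calling was checked on simulated signals, only for genes well above the floor and changes well past 2-fold. The simulated noise was smaller than the same-gene SD at the brightness of the called receptors. The check therefore does not bear on ratios near 2-fold, such as those of Cd160 and Cd200r1. Alternatives were array median, quantile and loess scaling, other floors, an added constant of 50, other probe set choices and thresholds of 1.5-fold and 3-fold. Precision is limited by the number of arrays. Python 3.11.15, numpy 2.4.6, pandas 2.3.3 and statsmodels 0.14.6 were used.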

Additional observations from a re-analysis of the deposited data

How the results depend on the processing

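No paired analysis was possible because each group had 1 array. Over 9 alternatives for 9 receptor genes, 80 of 81 ratios moved by less than the same-gene SD of their brightness. The exception was Cd160 with the median of its probe sets (-0.24). Many of the 81 could not move. The brightest probe set of each receptor lay above every floor used on both arrays and had no suffix. Other floors and the choice of probe sets without suffix therefore repeated all 9 reported ratios. The median of probe sets did so for the 5 genes with 1 probe set. No called ratio changed sign. The receptors at least 2-fold higher went from 1 to 0 with the added constant and at 3-fold, and to 2 at 1.5-fold. Those at least 2-fold lower went from 2 to 1 with array medians, the added constant, the median of probe sets and at 3-fold. Over all genes, 374 higher and 526 lower became 1325 and 1572 with the 20th percentile as floor, 183 and 226 with the 60th, 2057 and 2311 without a floor, 232 and 300 with the added constant, 1035 and 1560 at 1.5-fold, and 91 and 143 at 3-fold. Higher ligand genes (1) became 2 without a floor, 4 at 1.5-fold and 0 at 3-fold. Lower ligand genes (2) became 0 with the 60th percentile as floor and at 3-fold, and 1 with the added constant or the median of probe sets. They became 3 with the 20th percentile as floor or without a floor, and 4 at 1.5-fold. Higher related receptors (2) became 1 with the added constant, the median of probe sets, probe sets without suffix and at 3-fold. They became 3 with array medians or without a floor, and 4 at 1.5-fold. Lower related receptors (0) became 1 with the median of probe sets and at 1.5-fold. Higher signalling genes (1) became 2 at 1.5-fold and 0 at 3-fold, and lower ones (1) became 2 with quantile scaling, 4 at 1.5-fold and 0 at 3-fold. Higher transcription factor genes (1) became 0 without suffixed probe sets and at 3-fold, and 4 at 1.5-fold; lower ones (3) became 2 with array medians, quantile or loess scaling and the added constant, 5 at 1.5-fold and 0 at 3-fold. Thresholds and probe set choices change these counts by construction; for the other changes the cause was not tested. Signals near the floor limit the dim probe sets of Cd160 and Cd200r1.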
